A study of Mus musculus with 8 samples.

Results

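Granule neuron progenitors (GNPs) from mouse cerebellum held 3111 autosomal regions with an ATAC-seq peak in Chd7 wild-type (WT) cells and in heterozygous (het) cells but with no peak in homozygous mutant cells. They were found by joining the autosomal peaks of the 3 genotypes that lay less than 300 bp apart, which gave 186451 joined regions, and by keeping those with a WT and a het peak and no mutant peak (1.67% of all joined regions). The members were thus chosen by peak presence, and their presence and strength are given as a description. Regions with peaks in all 3 genotypes, 84910 of them, and the 5648 regions with het and mutant peaks and no WT peak are set beside them.

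ATAC-seq uses the Tn5 transposase to cut and tag accessible DNA, and a peak marks a stretch where cuts pile up. The cells were GNPs of mice at postnatal day 7, of the strain labelled C56Bl6/J where the study's methods name C57BL/6N, in 3 WT, 2 het and 3 mutant libraries. Per the study's methods, WT pups were Chd7 f/f without Cre, het pups were Atoh1-Cre::Chd7 f/+ and mutant pups were Atoh1-Cre::Chd7 f/f, so that Chd7 could be lost only in cells that had expressed the Atoh1-driven Cre. The study also describes Chd7 remaining in the posterior lobe, which its authors put down to probable lower recombination there. The GNPs were enriched on a Percoll gradient, the sex of the pups was not separated, and the 3 WT and the 3 mutant libraries were technical replicates. The authors called 1 peak list on the pooled libraries of each genotype, so the values below carry no error between libraries, and genotypes could not be tested against it.

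Chd7 is an ATP-dependent remodeller that moves nucleosomes, and its loss in GNPs is known to impair granule neuron differentiation. GNPs proliferate in the outer layer of the postnatal cerebellum under Sonic hedgehog, and their identity depends on Atoh1, a basic helix-loop-helix factor. Factors of this family, among them Atoh1 and the Neurod proteins, bind 6-base E-boxes that begin with CA and end with TG, and accessible regions far from promoters are often enhancers.

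The sequences of 12 members are shown because these are the strongest members and the strongest members at genes of interest. Each is the plus strand of GRCm38 (mm10), 200 bases around the WT summit, with every match to the E-boxes CAGATG or CATATG or CAGCTG in capitals on either strand (CATCTG stands for the other strand of CAGATG). Members were ordered by the lower of their WT and het ranks, each rank taken by significance within its list. By that order the first 6 were among the 7 strongest members. The next 4 were the strongest at genes lower in mutant GNPs, and the last 2 the strongest at protein-coding start sites.
Intergenic member, chr1:122881966-122882165: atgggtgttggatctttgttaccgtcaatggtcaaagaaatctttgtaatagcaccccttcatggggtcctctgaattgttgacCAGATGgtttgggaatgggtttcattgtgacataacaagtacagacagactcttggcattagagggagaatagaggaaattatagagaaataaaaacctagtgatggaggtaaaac
Intergenic member, chr14:95313205-95313404: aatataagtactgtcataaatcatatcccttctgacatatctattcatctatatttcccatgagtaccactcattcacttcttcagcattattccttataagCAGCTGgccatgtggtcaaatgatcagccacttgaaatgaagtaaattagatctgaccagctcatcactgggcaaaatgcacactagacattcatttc
Intergenic member, chr4:5499201-5499400: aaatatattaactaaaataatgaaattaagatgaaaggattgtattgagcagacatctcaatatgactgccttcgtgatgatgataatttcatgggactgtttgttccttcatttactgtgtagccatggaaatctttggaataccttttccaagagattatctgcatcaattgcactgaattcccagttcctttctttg
Gm36723 intron, chr12:25467934-25468133: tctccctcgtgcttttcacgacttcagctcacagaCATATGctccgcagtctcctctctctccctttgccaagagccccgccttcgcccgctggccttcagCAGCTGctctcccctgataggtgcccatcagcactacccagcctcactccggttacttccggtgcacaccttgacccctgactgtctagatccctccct
Arl4c intron, chr1:88689493-88689692: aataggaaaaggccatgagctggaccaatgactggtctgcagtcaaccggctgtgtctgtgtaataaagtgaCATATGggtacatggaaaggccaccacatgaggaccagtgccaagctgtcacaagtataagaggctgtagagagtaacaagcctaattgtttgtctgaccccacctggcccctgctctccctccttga
Osbpl9 intron, chr4:109172658-109172857: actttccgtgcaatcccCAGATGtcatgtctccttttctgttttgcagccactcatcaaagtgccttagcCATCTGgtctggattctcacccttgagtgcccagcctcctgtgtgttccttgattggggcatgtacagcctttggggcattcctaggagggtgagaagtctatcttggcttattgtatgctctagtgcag
Ptprk intron, chr10:28391267-28391466: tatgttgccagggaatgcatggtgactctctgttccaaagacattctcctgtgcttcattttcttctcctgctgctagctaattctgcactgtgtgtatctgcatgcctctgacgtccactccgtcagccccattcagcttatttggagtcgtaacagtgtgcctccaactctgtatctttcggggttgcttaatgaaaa
Adgrb3 intron, chr1:25581816-25582015: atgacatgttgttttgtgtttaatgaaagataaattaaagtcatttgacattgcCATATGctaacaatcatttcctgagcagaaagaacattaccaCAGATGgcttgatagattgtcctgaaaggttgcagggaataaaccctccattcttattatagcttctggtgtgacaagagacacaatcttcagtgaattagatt
Nova1 intron, chr12:46781549-46781748: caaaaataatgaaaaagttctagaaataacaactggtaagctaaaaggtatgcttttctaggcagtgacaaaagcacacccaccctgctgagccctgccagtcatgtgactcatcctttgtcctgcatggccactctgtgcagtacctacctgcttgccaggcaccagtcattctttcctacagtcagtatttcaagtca
Plcl1 intron, chr1:55469584-55469783: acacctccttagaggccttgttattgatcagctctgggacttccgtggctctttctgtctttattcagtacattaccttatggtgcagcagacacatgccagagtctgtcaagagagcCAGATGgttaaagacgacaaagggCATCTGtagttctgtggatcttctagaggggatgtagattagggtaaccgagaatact
Tfap2e start site, chr4:126736176-126736375: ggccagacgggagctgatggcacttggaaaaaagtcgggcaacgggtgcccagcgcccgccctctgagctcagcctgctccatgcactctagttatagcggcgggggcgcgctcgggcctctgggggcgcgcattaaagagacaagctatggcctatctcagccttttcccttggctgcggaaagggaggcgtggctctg
Cacnb2 start site, chr2:14823128-14823327: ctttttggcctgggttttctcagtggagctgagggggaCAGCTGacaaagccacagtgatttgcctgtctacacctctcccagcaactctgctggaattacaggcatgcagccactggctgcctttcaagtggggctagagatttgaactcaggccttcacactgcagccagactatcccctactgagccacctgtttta
Of these 200-base windows, the Osbpl9 and Plcl1 windows each held 2 CAGATG sites, and the Adgrb3 window held CATATG and CAGATG. The Ptprk, Nova1 and Tfap2e windows and the chromosome 4 intergenic window held none of the 3 E-boxes. GC content ran from 33.5% in that intergenic window to 63.5% at the Tfap2e start site.

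The members were small and mostly single peaks. Their median width was 303 bp (quartiles 243 and 394 bp), and together they covered 1.05 Mb. A single WT peak made up 2971 of the 3111 members (95.5%), and the WT and het peaks overlapped in 2875 (92.4%). The other 236 (7.59%) held WT and het peaks that were joined across a gap. The WT and het summits lay a median of 61.0 bp apart.

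The members were weak in both lists that chose them. Strength is given as pileup, the number of extended tags over the summit, as fold enrichment of pileup over the local background, and as -log10 q, the significance from the authors' peak caller. The median WT peak of a member had a pileup of 11, a 4.10-fold enrichment and a -log10 q of 3.84, and the median het peak a pileup of 13, a 3.76-fold enrichment and a -log10 q of 4.06. In regions with all 3 lists the median -log10 q was 12.9 in WT and 12.9 in het. Only 426 members (13.7%) reached a -log10 q of 5 in both lists and 11 reached 10 in both. The highest member values were 20.7 in WT and 17.7 in het.

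**Figure D1:**
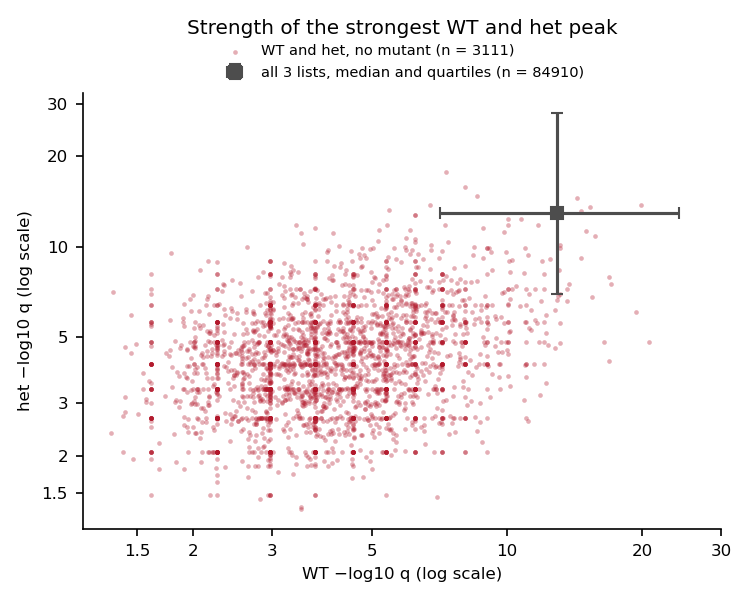
Each red point is a member, placed by the -log10 q of its strongest WT peak (x) and het peak (y), both on log axes. The grey square with bars gives the median and quartiles of the 84910 regions with all 3 lists; most members lie below and to the left of its median of 12.9 on both axes. Rows and columns of points are repeated values at low whole-number pileups.

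WT and het strength were only loosely related among the members. Across the 3111 members, Pearson's r between the log2 fold enrichments in WT and het was 0.351 and Spearman's rho 0.303. Across the 84910 regions with all 3 lists these values were 0.871 and 0.863, over a much wider range of strength. Regions are not independent replicates, and both lists enter the choice of members, so these values only describe the peaks.

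Of the 88021 regions with WT and het peaks, 3111 held no mutant peak, 3.53% (Wilson 95% CI 3.41 to 3.66%). The share fell steeply with strength. It was 25.2% (CI 23.8 to 26.6%) where the WT -log10 q was under 3, 12.2% at 3 to 5, 3.86% at 5 to 10 and 0.353% at 10 to 20. At 20 and over, 1 of 27113 regions had no mutant peak. By the het value the shares were 26.7%, 14.3%, 3.63% and 0.176% in the same bands, and none of the 29715 strongest, at 20 and over, was without one (0 regions), which allows a share of up to 0.0101% by a limit of 3 counts (Wilson upper bound 0.0129%). These intervals cover counting error over regions only. They leave out differences between libraries, and neighbouring regions are not independent.

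**Figure D2:**
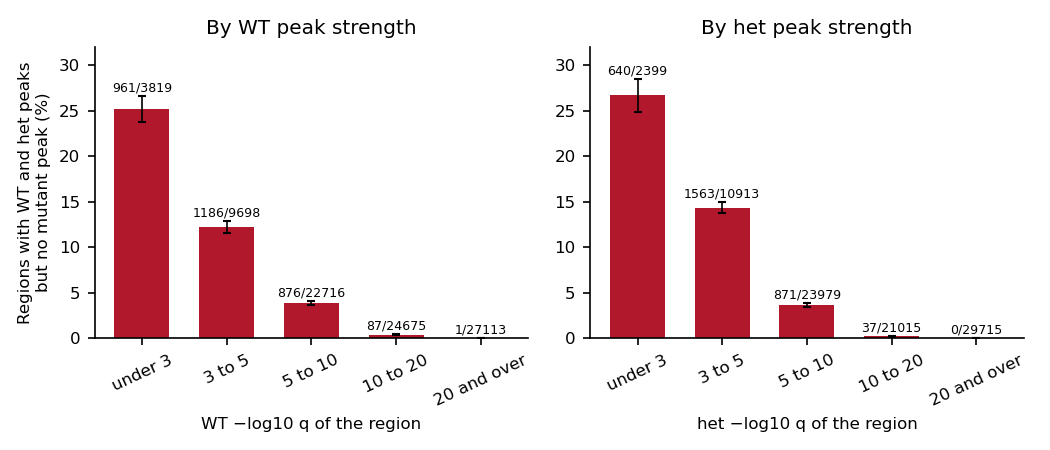
Bars give the share of regions with WT and het peaks that held no mutant peak (y, percent) in bands of WT -log10 q (left) and het -log10 q (right), with Wilson 95% intervals as bars and the counts above. The share falls from 25.2% and 26.7% in the weakest bands to 1 of 27113 and 0 of 29715 regions in the strongest.

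The reverse class was larger. Of the 90558 regions with het and mutant peaks, 5648 held no WT peak, 6.24% (CI 6.08 to 6.40%). This class was close to the members in strength, with a median het -log10 q of 4.06 and a median mutant -log10 q of 4.61. The lists differed in length, with 149637 autosomal peaks in WT, 170362 in mutant and 104396 in het. With each list cut to its 79706 strongest autosomal peaks, 8.13% (CI 7.92 to 8.34%) of regions with WT and het peaks lacked a mutant peak. In the reverse direction, 7.88% (CI 7.68 to 8.09%) of regions with het and mutant peaks lacked a WT peak, so the order of the shares turned. These intervals cover counting error over regions alone and do not test the genotypes against each other.

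The lists also differed in how they were made, and these differences cannot be told apart from genotype. After filtering, 50394313 WT, 30923002 het and 51030229 mutant tags entered the calls. The tag size was 76 bp in mutant and longer in WT and het. Het peaks were called with 200 bp extensions and were wider, with a median of 378 bp against 212 bp in WT and 198 bp in mutant. At all 3111 members the sequence around the summit occurred once in the genome, at 76 bases and at the longer tag size, against 99.9% of regions with all 3 lists at 76 bases.

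The distance from a member to the nearest mutant peak varied widely, with a median of 5308 bp (quartiles 1929 and 10467 bp). A mutant peak lay within 5 kb of 1469 members (47.2%), while 2681 (86.2%) had none within 1000 bp and 822 (26.4%) none within 10 kb. The joining rule itself left no mutant peak under 300 bp away. Whether these distances differ from those at other positions in the genome was not tested. The 65 members with a mutant peak within 400 bp had a median -log10 q of 3.73 in WT and 4.38 in het, and that mutant peak a median of 6.10. The 29 regions counted as holding all 3 lists only through a mutant peak at least 200 bp away had medians of 3.45 in WT and 4.18 in het, and their mutant peaks a median of 3.12.

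Members lay mostly in introns and between genes. Read at the WT summit, 1514 of 3111 (48.7%, CI 46.9 to 50.4%) were intergenic, 42.8% intronic and 4.69% exonic, and 120 (3.86%, CI 3.24 to 4.59%) lay within 1 kb of a transcription start site (TSS). The median distance to the nearest start site was 45 kb, against 21.9 kb in regions with all 3 lists and 37.3 kb in regions with het and mutant peaks alone. A distance over 100 kb was found for 30.6% (CI 29.0 to 32.3%) of members, 16.6% (CI 16.3 to 16.8%) of regions with all 3 lists and 24.6% (CI 23.5 to 25.7%) of the het and mutant class. Of the exonic members, 79 were in coding sequence, 40 in untranslated parts and 27 in non-coding transcripts.

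Since strong peaks gather at promoters, location was compared within bands of WT strength. The TSS share of members was below that of regions with all 3 lists in each band below 20: 3.02% against 5.63% at a WT -log10 q under 3 (difference -2.62 points, Newcombe 95% CI -3.90 to -1.11), 4.47% against 6.84% at 3 to 5, 4.11% against 7.67% at 5 to 10 (difference -3.56 points) and 2 of 87 members against 11.2% at 10 to 20 (difference -8.87 points, CI -10.6 to -3.16). The intergenic share was higher in the members in each band, by 8.40 points (CI 4.75 to 12) under 3, 4.99 points (CI 1.98 to 8.02) at 3 to 5 and 7.79 points (CI 4.43 to 11.2) at 5 to 10. At 10 to 20 the intergenic difference was 9.60 points with a CI of -0.678 to 19.9, which includes 0. Intronic shares were lower in the members by 3.70 to 6.23 points below a WT -log10 q of 10.

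**Figure D3:**
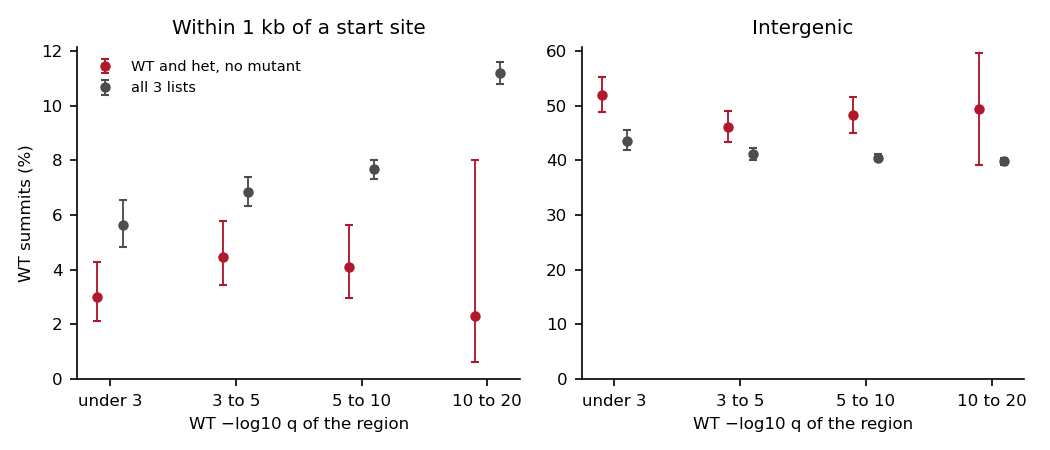
Points give the share of WT summits (y, percent) within 1 kb of a start site (left) and in intergenic sequence (right) by band of WT -log10 q (x), for members in red and regions with all 3 lists in grey, with Wilson 95% intervals. Members sit below the grey points on the left, 3.02% against 5.63% in the weakest band, and above them on the right, 52.0% against 43.6%.

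Against the reverse class the members differed less. Read at the het summit, the TSS share was 3.86% in members and 4.18% in regions with het and mutant peaks alone (difference -0.321 points, CI -1.15 to 0.563). The intergenic share was 48.7% against 43.9% (difference 4.74 points, CI 2.56 to 6.92). That difference was 6.56 points (CI 3.49 to 9.63) at a het -log10 q of 3 to 5 and 0.956 points (CI -3.09 to 5.02) at 5 to 10.

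In sequence the members were slightly poorer in GC and CpG than regions with all 3 lists. Over 300 bp at the WT summit, median GC was 49.3% (quartiles 45.7 and 53.0%) in members and 51.0% (46.7 and 56.3%) in regions with all 3 lists. The CpG ratio, observed over expected from base content, had a median of 0.174 against 0.252, and stayed lower in the members in each band, for instance 0.180 against 0.222 at a WT -log10 q of 5 to 10. The 87 members at a WT -log10 q of 10 to 20 were lower in GC than regions with all 3 lists there, with a median of 43.7% against 50.3%. At het summits with a het -log10 q of 10 to 20 the median was 47.3% in 37 members and 48.0% in 57 regions of the het and mutant class. Repeat sequence covered at least 50% of the window in 238 members (7.65%, CI 6.77 to 8.64%), in 1.94% of regions with all 3 lists, in 4.48% of the het and mutant class and in 18.9% of regions with a WT peak alone.

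A set of 20 motifs was searched on both strands of the 300 bp windows, by letters with N for any base. They were the E-boxes CAGATG and CATATG and CAGCTG, the MEIS site TGACAG, the ROR/NR site AGGTCA, the NFI site TTGGCA and its palindrome, the Zic site CAGCAGG, the AP-1 site TGANTCA, the Sox site ACAATGG, the homeobox site TAATTA, the ETS site CCGGAAG, the SP/KLF box GGGCGGG, the Oct site ATGCAAAT, the CRE TGACGTCA, the Gli site TGGGTGGTC, the RFX site GTTGCCATG, and CTCF and Nrf1 and MEF2 by their cores. The NFI palindrome can share bases with the NFI site, and no other pair was built to overlap. A match describes the letters and is not a binding site.

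CATATG was found in 10.5% (CI 9.45 to 11.6%) of members, 7.03% (CI 6.86 to 7.20%) of regions with all 3 lists and 8.23% of all joined regions. The members' share was higher in each band of WT strength below 20: 9.47% against 7.14% under 3, 9.36% against 6.77% at 3 to 5, 11.9% against 7.11% at 5 to 10 (difference 4.76 points, CI 2.75 to 7.10) and 23.0% against 7.45% at 10 to 20 (difference 15.5 points, CI 7.95 to 25.4, 87 members). CATATG holds few G and C, and GC moved with it. Within windows of 40 to 50% GC the shares were 12.9% in members and 10.2% in regions with all 3 lists (difference 2.74 points, CI 1.14 to 4.53). In those windows at a WT -log10 q of 10 to 20 they were 17.0% and 9.97%, with 47 members and a CI of the difference of -1.11 to 20.2, which includes 0.

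CAGATG was found in 1243 of 3111 members (CI 38.2 to 41.7%), 35.9% of regions with all 3 lists and 34.4% of all joined regions. The difference was 3.10 points (CI -0.378 to 6.65) under 3, 6.71 points (CI 3.41 to 10.1) at a WT -log10 q of 5 to 10 and 14.0 points (CI 3.65 to 24.2) at 10 to 20. Within windows of 40 to 50% GC the shares were 41.1% and 41.1% over all bands (difference 0.0380 points, CI -2.44 to 2.56) and 46.8% against 42.1% at a WT -log10 q of 5 and over (CI of the difference 0.486 to 9.03). CAGCTG, the E-box with the highest GC, was found in 29.5% of members against 31.2%.

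Among the other motifs, the MEIS hexamer, bound by homeodomain factors that granule cells express, was found in 31.5% of members, 27.4% of regions with all 3 lists and 27.0% of all joined regions. At a WT -log10 q of 5 to 10 it was found in 36.0% against 28.2% (difference 7.77 points). The difference was 0.681 points (CI -2.03 to 3.51) at 3 to 5 and 2.25 points (CI -6.37 to 12.6) at 10 to 20, and within windows of 40 to 50% GC over all bands it was 2.31 points (CI -0.0196 to 4.72). The SP/KLF box, a GC-rich promoter motif, was found in 3.02% against 11.7%, and weighting the regions with all 3 lists to the members' bands brought the latter to 5.32%. The NFI site was found in 27.1% of members against 29.4%. At a WT -log10 q of 5 to 10, the interval of the difference lay above 0 for 4 of the 20 motifs (CAGATG and CATATG with MEIS and ROR/NR) and below 0 for 5. In each of the bands under 3, 3 to 5 and 10 to 20 it lay above 0 for 2 motifs and below 0 for 1.

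The reverse class was close to the members in strength and GC, with a median GC of 49.0% against 49.3%. Read at het summits, CAGATG was found in 39.5% of members against 34.4% (difference 5.05 points, CI 2.94 to 7.17), CATATG in 337 of 3111 against 429 of 5648 (difference 3.24 points, CI 1.97 to 4.56) and MEIS in 932 of 3111 against 27.6% (difference 2.39 points, CI 0.415 to 4.39). The MEIS difference had no single direction across bands of het -log10 q: it was -5.35 points (CI -9.61 to -0.940) under 3, 2.43 points (CI -0.343 to 5.25) at 3 to 5, 8.24 points (CI 4.49 to 12) at 5 to 10 and -10.8 points (CI -27.7 to 8.53) at 10 to 20, where there were 37 members. AP-1, the site of Fos and Jun dimers, was less frequent in the members than in the reverse class, at 8.81% against 10.8% (difference -2.03 points, CI -3.29 to -0.720). So was the homeobox hexamer, at 7.23% against 9.08%. At WT summits the members were close to regions with all 3 lists in AP-1, at 8.87% against 8.68% (difference 0.197 points, CI -0.771 to 1.26). The homeobox shares there were 7.81% and 7.71%. Over all joined regions AP-1 was found in 9.35% and the homeobox hexamer in 7.74%. The members and the reverse class were both chosen on the lists, and these intervals treat regions as independent.

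**Figure D4:**
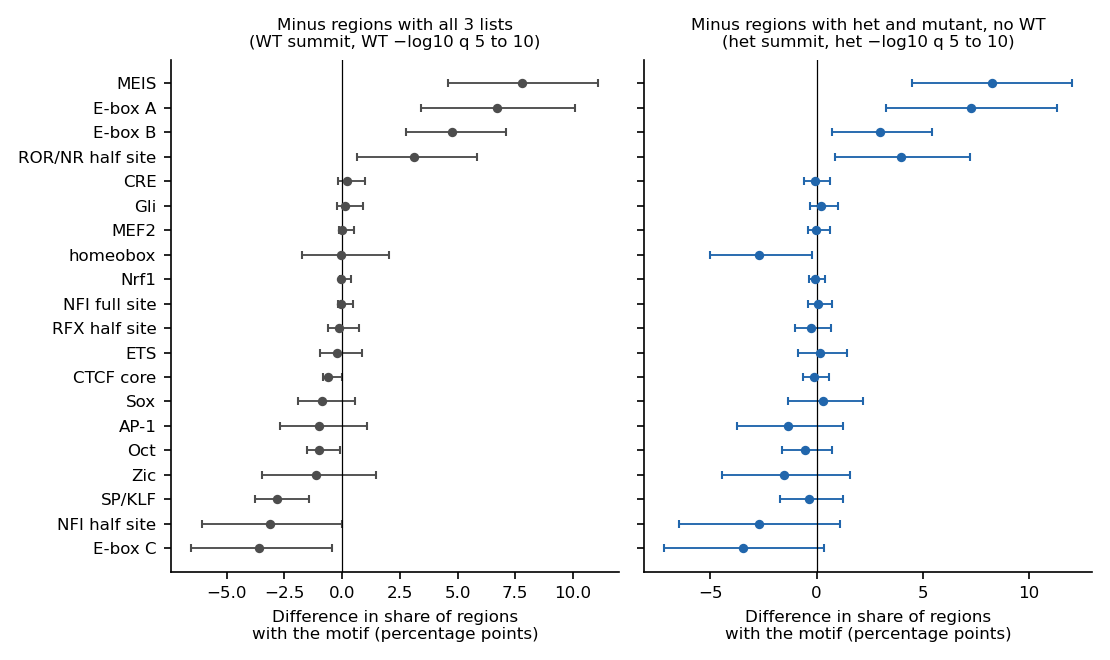
Points give the members' share of windows with each of 20 motifs minus that of regions with all 3 lists (left, WT summits, WT -log10 q of 5 to 10) and minus that of regions with het and mutant peaks alone (right, het summits, het -log10 q of 5 to 10), in percentage points with Newcombe 95% intervals; E-box A is CAGATG, B is CATATG and C is CAGCTG. MEIS and E-boxes A and B lie to the right of 0 in both, MEIS by 7.77 and 8.24 points. The MEIS difference was lower in the bands not shown, and below 0 at a het -log10 q under 3 and at 10 to 20.

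The strongest members by the lower of their WT and het ranks, where a rank is the percent of a list's peaks at or below that -log10 q, were distal. Of the top 12, 7 were intronic, 4 intergenic and 1 in a non-coding exon. In the 300 bp window 5 held CAGATG, 4 held CAGCTG and 4 held CATATG. Over all joined regions the shares with these E-boxes were 34.4%, 28.1% and 8.23%. The strongest was an intergenic region at chr1:122881822-122882371, 677 kb from the nearest start site, with a WT pileup of 22 (8.01-fold, -log10 q 14.3) and a het pileup of 24 (7.49-fold, 14.5). Its nearest mutant peak lay 22.5 kb away. The next, at chr14:95313168-95313468, had the highest WT value of the 12, a pileup of 26 (10.1-fold, -log10 q 19.9), and a het -log10 q of 13.7. A region at chr4:5498789-5499447 had -log10 q values of 15.3 in WT and 13.5 in het. All of these lay over 50 kb from a start site.

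Inside genes, a member in an intron of the long non-coding RNA gene Gm36723 (chr12:25467767-25468148) had a WT -log10 q of 14.6 and a het value of 13.1, and a mutant peak lay 1125 bp away. In Arl4c, which encodes a small GTPase of the Arf family, an intronic member (chr1:88689440-88689710) had a WT pileup of 18 (6.92-fold) and a het pileup of 22 (6.76-fold). An intronic member of Osbpl9, an oxysterol-binding protein gene, had 6.72-fold and 6.76-fold enrichments and a mutant peak 884 bp away. The Fstl5 member at chr3:76301070-76302081 was the widest of the 12, at 1012 bp, with a WT -log10 q of 15, a het value of 11.3 and a GC content of 27.7%. Introns of Schip1, of Lhfpl2 and of Nedd4l, which encodes a ubiquitin ligase, held 3 more of the 12. In Nedd4l the het value, 14.8, was above the WT value, 8.55.

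The 44 members at Chd7-activated genes, the study's list of genes lower in mutant GNPs, were 3.62% (CI 2.70 to 4.82%) of the 1217 regions with WT and het peaks there, near the 3.53% over all such regions. Regions with het and mutant peaks and no WT peak were 6.01% of their class at these genes against 6.24% overall. By band of WT -log10 q, the members' share at these genes was 17.4% (CI 9.09 to 30.7%) under 3, where it was 25.2% over all regions, 15.3% (CI 9.87 to 22.8%) against 12.2% at 3 to 5, and 5.84% (CI 3.63 to 9.27%) against 3.86% at 5 to 10. The 137 autosomal genes matched in the list held members at 31 of them. The list was drawn from the study's own RNA-seq of the same genotypes.

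The strongest of these 44 lay in an intron of Ptprk, a receptor tyrosine phosphatase gene (chr10:28391231-28391507), with a WT pileup of 20 (7.45-fold, -log10 q 12.5) and a het pileup of 20 (5.44-fold, 9.09). The nearest mutant peak lay 14.1 kb away. In Adgrb3, an adhesion receptor gene active at cerebellar synapses, an intronic member (chr1:25581748-25582007) had a WT -log10 q of 6.24 and a het value of 7.57, with the nearest mutant peak 35.1 kb away and CATATG and CAGATG in its window. In Nova1, a neuronal splicing factor gene, the member at chr12:46781595-46781859 had 5.15 in WT and 10.5 in het, and a mutant peak lay 701 bp away.

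Plcl1, a phospholipase C-like gene, held an intronic member (chr1:55469566-55470045) with a WT -log10 q of 11 and a het value of 7.23. The members in Kcnd2, which encodes an A-type potassium channel subunit, and Nrcam, a neuronal adhesion gene, had values of 7.81 and 7.17, and of 4.31 and 6.03. Plcb1, a phospholipase C gene, held 3 members, of which the strongest pair had WT values of 5.37 and 5.52, and 1 of these had a mutant peak at 353 bp. Bmp5, a bone morphogenetic protein gene, held a member in its coding exon 1024 bp from the start site (WT 6.63, het 5.63) and Ptn, the pleiotrophin growth factor gene, held an intronic member (WT 4.53, het 5.59). Each of Bmp5 and Ptn held 2 members.

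**Figure D5:**
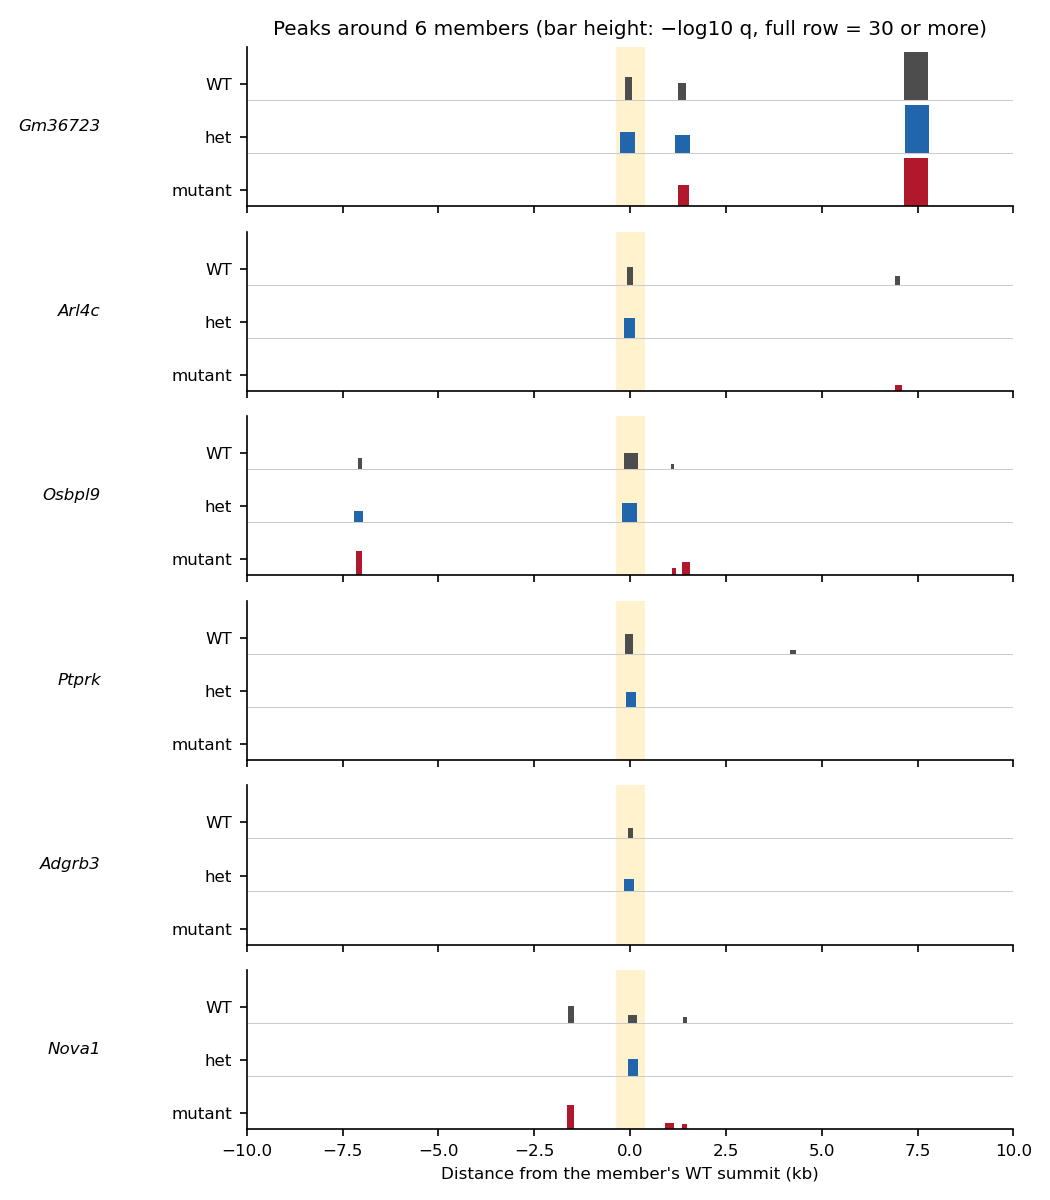
Peaks of the WT, het and mutant lists within 10 kb of the WT summit (x, distance in kb) of the 3 strongest members inside genes shown above by sequence and of the 3 strongest at Chd7-activated genes; bar height is -log10 q, cut at 30, bar width the peak width, and the shaded strip marks the member. Each strip holds WT and het peaks alone, and no mutant peak appears within 10 kb of the Ptprk and Adgrb3 members.

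A further list was the part of the Chd7- and Top2b-activated genes of cultured granule neurons, 203 in number, that also rose on differentiation. They held 121 members among 2807 regions (4.31%, CI 3.62 to 5.13%), with 5.82% in the reverse direction. Over all regions these shares were 3.53% and 6.24%, and the members' share at any gene was 2.94%. By WT -log10 q the list's share was 27.2% against 25.2% over all regions under 3 and 15.6% against 12.2% at 3 to 5. It was 4.89% against 3.86% at 5 to 10 and 0.410% against 0.170% at 10 and over. Gene length moved with the members' share. Members were 397 of 19853 regions with WT and het peaks at genes under 50 kb (CI 1.81 to 2.20%), 4.42% (CI 4.04 to 4.83%) at 300 kb to 1 Mb, 4.81% (CI 4.06 to 5.69%) at 1 Mb and over, and 4.68% (CI 4.45 to 4.93%) outside genes. The reverse class rose with length as well, from 3.92% under 50 kb to 7.74% at 1 Mb and over.

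By function, genes were read from textbook lists. Beside them, the members' share was 3.53% over all regions with WT and het peaks and 2.94% over those at any gene. In the reverse direction these shares were 6.24% and 5.57%. Granule lineage transcription factors held 11 members among 208 regions (5.29%, CI 2.98 to 9.22%), with 5.74% in the reverse direction. The strongest lay in an intron of Nfia, a nuclear factor I gene of granule cell maturation (WT pileup 27, 6.13-fold, -log10 q 13.0, het 6.82), and Nfib held 3 and Tcf4 held 3. Axon guidance and migration genes held 40 of 830 (4.82%), led by an intronic Sema3d member with a WT -log10 q of 15.7 and a het value of 10.8, at a gene for a secreted semaphorin. Unc5c, a netrin receptor gene, held 4 members and Astn2, a gene of glial-guided migration, held 5. Synaptic adhesion genes held 39 of 825 (4.73%, CI 3.48 to 6.40%), 1 of them in Dscam (WT 4.53, het 6.95). Cadherin genes held 20 of 331 (6.04%, CI 3.95 to 9.15%) against 11 of 322 (3.42%, CI 1.92 to 6.01%) in the reverse direction, 5 of them in Cdh18 and the strongest in Pcdh7 (WT 10, het 5.59). The intervals of these lists overlapped the 4.04 to 4.83% of all genes of 300 kb to 1 Mb. The lists were not matched to that length and held short genes too, such as Neurod2 at 4.23 kb.

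For the lists that follow, the share was 3.53% over all regions with WT and het peaks and 2.94% over those at any gene. Voltage-gated channel genes held 25 of 538 (4.65%), the strongest in Kcnq3, a potassium channel gene of the M-current (WT 5.65, het 9.06), and glutamate and GABA receptor genes 9 of 288 (3.12%), the strongest in Grm7. Sonic hedgehog pathway genes held 1 of 109 (0.917%, CI 0.162 to 5.01%), an intronic Gli2 member with a WT -log10 q of 3.55 and a het value of 3.01. Cell cycle and replication genes held 0 of 38, which allows up to 7.89%. Markers of other cerebellar cells held few regions: 1 of 29 at Purkinje cell markers, 369 bp from the start site of Skor2 (WT 3.47, het 3.98), and 0 of 15 at inhibitory interneuron, 0 of 22 at astrocyte and Bergmann glia, 0 of 20 at oligodendrocyte, 0 of 20 at microglia and 0 of 28 at endothelium markers. Promoter peaks were listed at 8 of 8 granule lineage markers in each list, with a median rank of 88.6 to 90.6, and at 2 to 5 of the 5 or 6 markers of each other cell type. Fewer cells of a type and less accessibility per cell cannot be told apart in pooled libraries.

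At start sites of protein-coding genes, the strongest member lay at Tfap2e, an AP-2 transcription factor gene, 35 bp from the start (chr4:126736190-126736479, WT pileup 16 and -log10 q 6.23, het pileup 24 and 10.6). A mutant peak with a -log10 q of 2.20 lay 550 bp away. Next came Cacnb2, a calcium channel subunit gene (WT 4.98, het 7.07), with a mutant peak of 12.3 at 371 bp, and Rnf183, a ubiquitin ligase gene (WT 4.84, het 9.14), with none within 11 kb. The members at Otog, an inner ear gene, at Hoxc4 and at Map3k19 had WT values of 5.37 to 5.91 and het values of 6.39 to 6.83. Of the 120 members at start sites, 71 were at protein-coding genes and 49 at long non-coding RNA genes.

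Members were spread over 1566 genes, 1341 of which held 1 each, and 1408 members (45.3%) were assigned to no gene. The most, 9, fell in Gm20388, a gene model of 4435 kb that spans 71 other protein-coding genes, and 7 fell in the 2961 kb model of Fgfr2, a fibroblast growth factor receptor gene that spans 29. Ptprd, a receptor phosphatase of synapses, held 7 members over 2271 kb, all intronic and with WT -log10 q values from 1.61 to 6.26, beside 76 regions with all 3 lists. Csmd2, Csmd3 and Hmcn1, large genes of the CUB and Sushi domain and hemicentin families, held 6 each. Regions with all 3 lists numbered 26 in Csmd2, 15 in Csmd3 and 13 in Hmcn1. Regions with het and mutant peaks and no WT peak numbered 13 in Gm20388, 9 in Fgfr2, 3 in Ptprd, 4 in Csmd2, 0 in Csmd3 and 2 in Hmcn1. The strongest Csmd3 member (chr15:48332554-48332758) had a WT pileup of 33, the highest of any member, with a -log10 q of 17.1 and a het value of 7.48. At Chd7 itself 1 intronic member was listed (WT 6.57, het 4.09), beside 14 regions with all 3 lists. Chd7 also held 2 regions with het and mutant peaks and no WT peak, 4 with a WT peak alone and 9 with a mutant peak alone.

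The densest stretch of members, named after its values were seen, was 83.4 kb of the keratin gene cluster on chromosome 15, with 5 members, 3 regions with all 3 lists and 2 with a mutant peak alone. They lay at the start sites of Krt72 (WT -log10 q 8.08, het 4.27) and Krt77 (3.73 and 4.81), 1282 bp from the start of Krt73 (8.47 and 5.72), and 11.5 kb and 6.09 kb from the starts of Krt2 and Krt1. By chromosome, the share of regions with WT and het peaks that were members ran from 2.69% (CI 2.27 to 3.19%) on chromosome 7 to 4.72% (CI 4.11 to 5.41%) on chromosome 14.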

How the data were processed

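Chromatin accessibility of GNPs was measured by ATAC-seq. Per the file headers, the authors called narrow peaks with MACS2 2.1.0.20150731 with no control sample and a q-value threshold of 0.05, once on the pooled libraries of each genotype. The submitters' processing notes name Trim Galore 0.4.1, STAR 2.5.0b, Bowtie 1.0.0 and Picard 1.139. The header paths point to STAR alignments for WT and mutant and to bowtie for het, and the het call alone shifted and extended its tags by fixed lengths.

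The deposited signal is the pileup at each summit, the deposited fold enrichment is a ratio to the local background, and -log10 q was deposited by the authors as well. None of these is scaled to depth. Peaks of the autosomes were joined as the study did, at gaps under 300 bp, and each region was described by the strongest peak of each list. Location and genes (body, 5 kb upstream, 1 kb downstream) came from GENCODE release M21 on mm10, and sequence from the GRCm38 genome. Shares have Wilson and differences Newcombe 95% intervals. Their coverage was checked on simulated independent draws, which leave out dependence between neighbouring regions and differences between libraries. Named members were the 12 with the highest lower-of-both ranks, the 10 highest at Chd7-activated genes, the 6 highest at protein-coding start sites, the highest in each gene list, and the genes with the most members, ties included. Further genes with counts were named after their values were seen. The study's gene lists were used for names alone (142 of 151 and 197 of 203 genes matched). Members and lists were chosen with earlier results of these data known. Calculations used python 3.11.15, numpy 2.4.6, pandas 2.3.3, scipy and pysam.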

Additional observations from a re-analysis of the deposited data

How the results depend on the processing

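No paired analysis was possible because each list was called on the libraries of 1 genotype together, and for the same reason no library could be left out. Under each of 6 alternatives the members were chosen anew. With peaks joined only when they overlapped or touched, 3.66% of regions with WT and het peaks held no mutant peak, 6.42% of regions with het and mutant peaks held no WT peak, and 5.26% of members lay at start sites. With joining under 1000 bp these shares were 3.30%, 5.92% and 3.22%, and 50.5% of members were intergenic. With peaks of -log10 q of 5 or more in all 3 lists, 3.64% of regions with WT and het peaks held no mutant peak. In the reverse direction, 7.36% of regions with het and mutant peaks held no WT peak. Of the members, 5.77% lay at start sites and 40.7% were intergenic. With that threshold on WT and het alone, 428 members were left, 0.625% against 9.99% in the reverse direction. Of these members, 45.1% were intergenic and 2.57% were at Chd7-activated genes. Fewer WT and het peaks entered by construction. With lists of equal length there were 5260 members, 8.13% against 7.88% in the reverse direction, 5.76% at start sites and 41.7% intergenic; the cause of these shifts was not tested. Adding the X chromosome changed none of the 6 results by more than its interval. Checks chosen after seeing the data were weighting to the members' bands, a WT -log10 q of 10 to 20 and 40 to 50% GC. Het summits and, for motifs, a 200 bp window were used as well. These checks turned no sign among the differences in CATATG and in CAGATG and in MEIS and start sites. Within 40 to 50% GC the CAGATG difference was 0.0380 points and that of MEIS 2.31 points, both with intervals that include 0. In some other bands of GC and strength the CAGATG or MEIS difference was below 0, also with intervals that include 0. The start site difference was -14.0 points over all members and -3.35 points when regions with all 3 lists were weighted to the members' bands. The pooled calls limit every statement to these 3 lists, and most members lie near the weak end of both.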

Other observations

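The X chromosome was not part of the joined regions above. It held 53 regions with WT and het peaks and no mutant peak, 2.46% (CI 1.89 to 3.20%) of its 2154 regions with WT and het peaks, and 127 regions with het and mutant peaks and no WT peak, 5.70% (CI 4.81 to 6.74%) of 2228. Of the 53, 27 were intergenic and 0 lay within 1 kb of a start site, which is read against 120 of 3111 on the autosomes. Nhs, a gene of actin regulation, held 3 of them, and 1 each fell at Nlgn3, a synaptic adhesion gene, Pou3f4, a POU-domain factor gene, and Il1rapl1, a synaptic receptor gene; these genes were named after their values were seen. The sex of the pups was not separated in the study, and its part in the X chromosome counts was not tested.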
